A study of Mus musculus with 23 samples.

Results

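The Hippo pathway and its YAP and TAZ target genes are described here through 10 genes named by symbol. These were chosen with earlier results of these data known. They are among the 48397 symbols counted in sorted cells of mouse breast tumours. They are the co-activator genes Yap1 and Wwtr1 (which encodes TAZ), the DNA-binding partner gene Tead1, the kinase genes Lats1 and Lats2, the scaffold genes Ajuba and Amotl2, and the target genes Ctgf (also written Ccn2), Cyr61 (Ccn1) and Ankrd1. All 10 symbols were found, and all 10 passed the filter on low counts in every comparison. The tumours were grown from Met1-iRFP cells in FVB mice. Met-1 is a mammary cancer line from a tumour of the MMTV-PyMT mouse, in which the polyoma middle T oncogene is driven in mammary epithelium, and iRFP, a fluorescent protein of the near infrared, marks the cells of that line. Sorting gave iRFP+ cancer cells and an iRFP- remainder, the tumour microenvironment (TME), and polyA RNA of each was sequenced.

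The 4 groups were cancer cells of exercised mice (7 libraries), cancer cells of sedentary mice (8 libraries), TME cells of exercised mice (4 libraries) and TME cells of sedentary mice (4 libraries). The labels give no mode or length of the exercise and no age of the mice. They also do not say that libraries come from different animals, so a p-value here rests on the spread among libraries, which may be technical. Total counts were 20073700 to 25526059 per library in cancer cells of exercised mice, 15924340 to 25563245 in cancer cells of sedentary mice, 22682216 to 37388479 in TME cells of exercised mice and 16307545 to 35958441 in TME cells of sedentary mice. The sort separated leukocyte, macrophage and endothelial markers. All 10 pan-leukocyte, all 12 macrophage and all 12 endothelial genes were lower in cancer than in TME cells by edgeR's test. Of all genes tested 25.3% were lower. Of 12 fibroblast genes 9 were lower and 1 higher, and of 12 pericyte and smooth muscle genes 9 were lower and 0 higher. Of 6 skeletal muscle genes tested 2 were lower. Of 12 epithelial genes, 6 (Krt8, Krt19, Krt7, Cldn4, Cldn7 and Esrp1) were too low to be tested. Of the 6 tested, Cldn3 was higher in cancer than in TME cells (log2 fold change 0.44 ± 0.17) and Cdh1, E-cadherin, was lower (-2.81 ± 0.48). Krt18, Epcam, Wfdc2 and Elf3 did not pass the threshold. The 12 epithelial genes summed to means of 344 and 434 CPM (counts scaled to library size) in exercised and sedentary cancer libraries. In TME libraries the means were 330 and 448 CPM, so these markers did not separate the sorts. Some TME libraries stood apart. Summed macrophage markers reached 6693 and 7120 CPM in exercise libraries 8 and 9, against 1086 and 1631 CPM in exercise libraries 7 and 10. They were 1405 to 1802 CPM in sedentary TME libraries. Mitochondrial genes took 42.2% of counts in sedentary TME library 4, whose endothelial markers summed to 578 CPM, the highest of the 8 TME libraries, and 14.5% in sedentary TME library 6. Values without these libraries are given beside the calls of the 10 genes that they change and beside some other results. The remaining changes of sign are given in the closing section on how the results depend on the processing.

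In the Hippo pathway the kinases LATS1 and LATS2 phosphorylate YAP and TAZ, which keeps both out of the nucleus and marks them for degradation. Unphosphorylated YAP and TAZ enter the nucleus, bind TEAD factors and switch on genes for matricellular proteins and cytoskeletal regulators. Much of this control acts on protein location and stability, so the RNA of Yap1 or Wwtr1 is not a reading of their activity, and target RNAs are the usual transcript readout. In mammary tumours YAP and TAZ are known for their links to stiffness, proliferation and invasion.

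TEAD factors recognise the letters GGAATG, or CATTCC on the other strand. These were searched on both strands of the 250 bases before each gene's start in the RefSeq promoter table (GRCm38.p6), in which 8 of the 10 genes were matched and Tead1 and Ctgf were not. The letters stood before 6 of these 8 genes and before 14.4% of 27025 gene symbols in the table. Lats1 and Lats2 had no match. The 26 bases around each match are shown because they carry the sequence by which TEAD factors find target genes, with the motif in capitals, read 5′ to 3′ on the gene's strand:
Cyr61: cgccaaccaaCATTCCtgagatgttt
Amotl2: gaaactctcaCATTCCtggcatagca
Ankrd1 distal: cactgccaaaGGAATGaccctctcac
Ankrd1 proximal: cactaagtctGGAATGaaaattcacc
Ajuba distal: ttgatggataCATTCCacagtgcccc
Ajuba proximal: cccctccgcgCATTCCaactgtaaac
Wwtr1: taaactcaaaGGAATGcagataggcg
Yap1: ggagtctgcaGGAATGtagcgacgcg

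In the 3 target and scaffold genes with the closest matches, the first motif base lay 65 bases before the start of Amotl2 (chr9:102717729-102717754, plus strand), 103 bases before that of Cyr61 (chr3:145650073-145650098, minus strand), and 123 and 210 bases before that of Ankrd1 (chr19:36119952-36119977 and chr19:36120039-36120064, minus strand). The Amotl2 and Ankrd1 sites fall in exons of their own genes in the GENCODE M21 annotation, and the Cyr61 site lies outside annotated genes. Matches lay 136 bases before Wwtr1 (chr3:57576031-57576056), 141 before Yap1 (chr9:8004722-8004747), and 164 and 186 before Ajuba (chr14:54577810-54577835 and chr14:54577832-54577857), all on the minus strand and outside annotated genes. The AP-1 letters TGANTCA stood before none of the 8 genes and before 7.82% of symbols, and the CArG box, bound by serum response factor, before none of the 8 and 1.62% of symbols. A match of letters is a description of the window and not a measured binding site.

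The whole Cyr61 window is printed because Cyr61 had the highest level per length of the 10 genes and the largest exercise difference in cancer cells. It holds 1 TEAD match, in capitals, and spans chr3:145649986-145650235 on the minus strand (GRCm38.p6).
Cyr61 promoter: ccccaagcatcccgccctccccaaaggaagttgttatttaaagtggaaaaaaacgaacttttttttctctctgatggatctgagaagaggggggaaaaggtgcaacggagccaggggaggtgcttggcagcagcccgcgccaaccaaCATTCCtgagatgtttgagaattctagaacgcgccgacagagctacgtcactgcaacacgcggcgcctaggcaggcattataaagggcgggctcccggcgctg

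Per length of annotated exon, Cyr61 led all 4 groups. Its level in RPKM (counts scaled by library size and exon length) was 254 ± 69.2 in cancer cells of exercised mice (SD, n = 7), 379 ± 157 in cancer cells of sedentary mice (n = 8), 326 ± 140 in TME cells of exercised mice (n = 4) and 437 ± 223 in TME cells of sedentary mice (n = 4). Wwtr1 was next, with 141 ± 13.5 RPKM in cancer cells of exercised mice, 140 ± 38.4 RPKM in cancer cells of sedentary mice, 66.4 ± 8.10 RPKM in TME cells of exercised mice and 60.5 ± 10.9 RPKM in TME cells of sedentary mice. Ctgf followed with 25.5 ± 15.2 RPKM in exercised and 33.2 ± 16.7 RPKM in sedentary cancer libraries, and with 27.2 ± 12.5 RPKM in exercised and 28.6 ± 19.6 RPKM in sedentary TME libraries. Group means of Tead1, Yap1, Lats1 and Amotl2 lay between 10.2 and 17.6 RPKM. In sedentary TME libraries Yap1, at 17.6 ± 1.06 RPKM, stood above Tead1, at 13.3 ± 1.01 RPKM, and Lats1, at 10.2 ± 1.04 RPKM, in ranges that did not overlap, while Tead1 and Yap1 overlapped in both cancer groups. Lats2 had the lowest mean in every group, at 6.68 ± 0.661 RPKM in exercised and 7.31 ± 0.943 RPKM in sedentary cancer libraries and at 6.69 ± 0.553 RPKM in exercised and 6.11 ± 0.478 RPKM in sedentary TME libraries. In exercised TME libraries Ankrd1, at 7.12 ± 3.15 RPKM, and Ajuba, at 7.20 ± 0.895 RPKM, were close to Lats2, and their ranges overlapped its range. The TAZ transcript thus exceeded the YAP transcript in every group, and the kinase pair was led by Lats1.

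**Figure D1:**
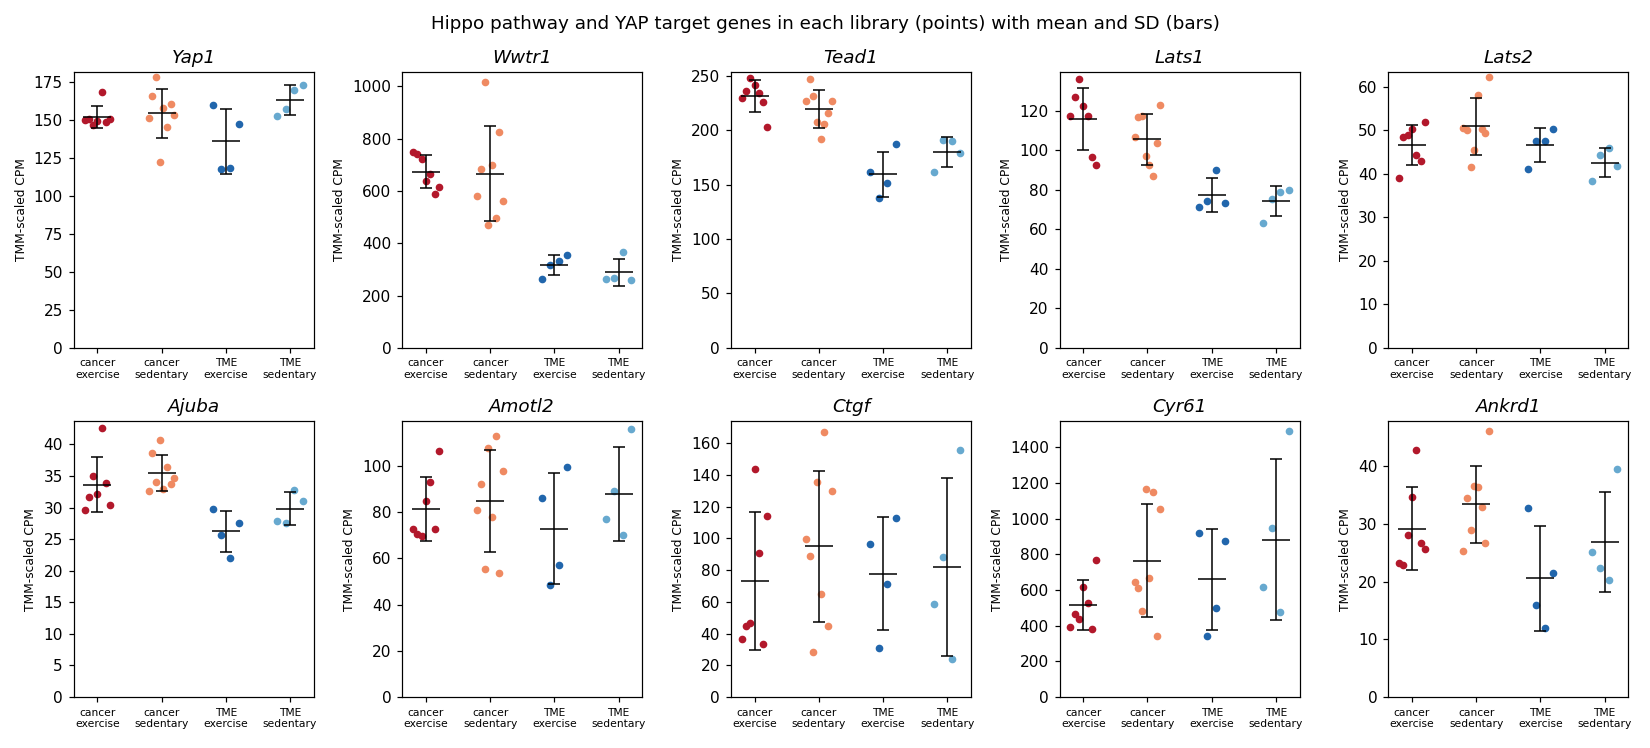
Level of each of the 10 genes in every library, as TMM-scaled CPM on a linear axis from 0, with 1 panel per gene and the 4 groups side by side; points are libraries and bars are the group mean and SD. Wwtr1 and Tead1 show 15 of 15 cancer libraries above all 8 TME libraries, while Ctgf and Cyr61 spread widely within every group. The share of all genes whose cancer and TME ranges separate was not counted.

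The first comparison sets cancer cells against TME cells. By edgeR's quasi-likelihood test with Benjamini-Hochberg adjustment 5 of the 10 genes were higher in cancer cells and 0 were lower, where 27.3% of the 17503 genes tested were higher, 25.3% lower and 52.6% differed in either direction. The share of members called, 5 of 10, is therefore near that of all genes. The genes called were Wwtr1, Tead1, Lats1, Ajuba and Ankrd1, and the median log2 fold change of the 10 was 0.22, against 0.01 over all genes tested. In bulk samples fewer cells of a type and less RNA per cell cannot be told apart, so a level here belongs to the sorted mixture. The share of all genes whose cancer and TME ranges separate was not counted, so the ranges below only describe each gene.

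Wwtr1, which encodes the co-activator TAZ (GRCm38 chr3:57455649-57575910, minus strand), separated the compartments furthest. Its counts ran from 587 over a median of 667 to 749 CPM in cancer cells of exercised mice and from 469 over 634 to 1017 CPM in cancer cells of sedentary mice. TME libraries of exercised mice had 265, 316, 332 and 357 CPM, and those of sedentary mice had 262, 269, 367 and 258 CPM. No TME library reached the lowest cancer library. The log2 fold change was 1.15 ± 0.11 (adjusted p = 4.14e-09 by edgeR), and it was 1.09 ± 0.16 between exercised and 1.21 ± 0.16 between sedentary libraries.

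Yap1, the paralog of Wwtr1 (chr9:7931999-8004596, minus strand), gave a log2 fold change of 0.04 ± 0.07 between the sorts (adjusted p = 0.642). It ran from 146 over a median of 150 to 168 CPM in cancer cells of exercised mice and from 122 over 155 to 178 CPM in cancer cells of sedentary mice. TME libraries of exercised mice had 160, 117, 118 and 147 CPM, and those of sedentary mice had 152, 157, 170 and 173 CPM. Its cancer and TME ranges overlapped almost entirely, and the sign of its fold change turned under some other settings. Within each library the log2 ratio of Yap1 to Wwtr1 was -2.11 ± 0.21 in cancer cells (SD, n = 15) and -1.02 ± 0.35 in TME cells (n = 8). The difference of -1.09 had p = 2.04e-06 by a two-sided exact permutation test, the smallest that 490314 splits can give, and an adjusted p of 1.22e-05 over 6 ratio tests. Wwtr1 counts were thus 4.43 times those of Yap1 in cancer cells of exercised mice and 4.22 times in those of sedentary mice, against 2.35 times in TME cells of exercised mice and 1.76 times in those of sedentary mice.

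Tead1, a TEAD factor that YAP and TAZ bind (chr7:112679318-112906807, plus strand), was also higher in all 15 cancer libraries than in any TME library. It ran from 203 over a median of 234 to 248 CPM in cancer cells of exercised mice and from 192 over 221 to 247 CPM in cancer cells of sedentary mice. TME libraries had 161, 137, 152 and 187 CPM after exercise and 161, 191, 190 and 179 CPM in sedentary mice. The ranges nearly touch, since the lowest cancer library had 192 CPM and the highest TME library 191 CPM. The log2 fold change was 0.41 ± 0.06 (adjusted p = 2.78e-06).

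The kinase genes differed from each other. Lats1 (chr10:7681214-7716460, plus strand) had a log2 fold change of 0.54 ± 0.08 in cancer against TME cells (adjusted p = 1.35e-06 by edgeR). Its range was 92.6 to 136 CPM, with a median of 118, in cancer cells of exercised mice and 87.0 to 123 CPM, with a median of 105, in cancer cells of sedentary mice. TME libraries of exercised mice had 71.5, 74.2, 90.2 and 73.3 CPM and those of sedentary mice had 63.3, 75.4, 78.9 and 79.7 CPM, so 14 of 15 cancer libraries stood above all TME libraries. Lats2 (chr14:57689662-57758388, minus strand) had means of 46.6 ± 4.61 and 51.0 ± 6.57 CPM in cancer cells of exercised and sedentary mice, and 46.7 ± 3.86 and 42.6 ± 3.33 CPM in TME cells of exercised and sedentary mice. Its log2 fold change was 0.13 ± 0.07 (adjusted p = 0.143), and it passed the threshold between sedentary libraries alone, at 0.26 ± 0.10 (adjusted p = 0.0433). Between exercised libraries it was -0.00 ± 0.10, and the difference between the treatments did not pass (adjusted p = 0.699). The log2 ratio of Lats2 to Lats1 was -1.17 ± 0.28 in cancer cells and -0.76 ± 0.13 in TME cells, a difference of -0.41 (exact permutation p = 0.00108, adjusted p = 0.00325).

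Of the scaffold genes, Ajuba, a LIM protein that holds LATS kinases back (chr14:54567472-54577558, minus strand), was higher in cancer cells. It averaged 33.6 ± 4.40 CPM in cancer cells of exercised mice and 35.5 ± 2.87 CPM in those of sedentary mice, against 26.2 ± 3.26 CPM in TME cells of exercised mice and 29.8 ± 2.55 CPM in those of sedentary mice. The log2 fold change was 0.30 ± 0.07 (adjusted p = 0.00113), with 10 of 15 cancer libraries above the highest TME library. Without sedentary TME libraries 4 and 6 it was 0.19 (adjusted p = 0.0671). Amotl2, an angiomotin family member that binds YAP in the cytoplasm and is itself a YAP target (chr9:102716672-102733418, plus strand), averaged 81.3 ± 14.0 CPM in exercised and 84.8 ± 22.2 CPM in sedentary cancer libraries, and 72.8 ± 23.9 CPM in exercised and 88.0 ± 20.3 CPM in sedentary TME libraries. Its log2 fold change between the sorts was 0.05 ± 0.15 (adjusted p = 0.788), or -0.15 without exercise TME libraries 8 and 9.

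Of the classical targets, Ankrd1 alone passed the threshold between sorts. Ankrd1, a muscle ankyrin repeat protein and YAP target (chr19:36111961-36120099, minus strand), averaged 29.2 ± 7.19 and 33.4 ± 6.69 CPM in cancer cells of exercised and sedentary mice, against 20.5 ± 9.08 and 26.8 ± 8.71 CPM in TME cells of exercised and sedentary mice. Its log2 fold change of 0.41 ± 0.16 passed the threshold narrowly (adjusted p = 0.0366), and it passed in 17 of 33 settings. Without exercise TME libraries 8 and 9, whose macrophage markers were highest and whose Ankrd1 was 15.9 and 11.9 CPM, it was 0.18 (adjusted p = 0.364), and without sedentary TME libraries 4 and 6 it was 0.28 (adjusted p = 0.254). Leaving out any 1 of 6 TME libraries (exercise 8, 9 or 10, sedentary 4, 6 or 9) or 3 cancer libraries (exercise 5 or 7, sedentary 10) also ended the call, with adjusted p between 0.0536 and 0.128. Ctgf, a secreted matricellular protein (chr10:24595442-24598683, plus strand), had a log2 fold change of 0.06 ± 0.38 (adjusted p = 0.910), or -0.18 without exercise TME libraries 8 and 9. Cyr61, a related matricellular protein (chr3:145646976-145649981, minus strand), had -0.28 ± 0.25 (adjusted p = 0.360), or -0.53 without exercise TME libraries 8 and 9 (adjusted p = 0.112).

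**Figure D2:**
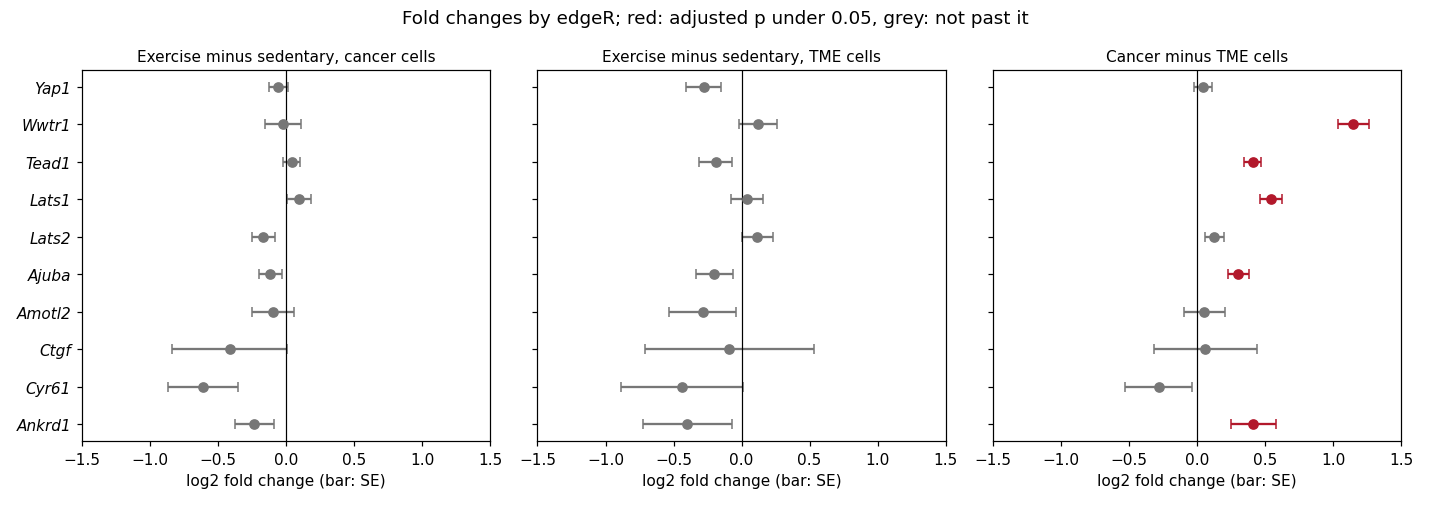
Log2 fold change of each of the 10 genes, with bars of 1 standard error of the fit, for exercise against sedentary in cancer cells (left), the same in TME cells (middle) and cancer against TME cells (right); red points passed an adjusted p of 0.05 and grey points did not. Wwtr1 lies furthest from 0 between the sorts at 1.15, and no gene passed the threshold for exercise, where Cyr61 in cancer cells lies lowest at -0.61.

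The exercise comparison in cancer cells asks whether the pathway's transcripts differ in tumour cells of exercised mice. Of the 10 genes 0 passed the threshold by edgeR, as did 0% of the 15096 genes tested, and at an unadjusted p under 0.05 there were 1901 genes, or 12.6%. DESeq2 called 161 genes and 0 of the 10. At that unadjusted threshold 1 of the 10, Cyr61, was lower and 0 were higher, where 6.67% of all genes were lower and 5.92% higher. The fold changes of 8 of 10 were below 0, as were 7942 of all 15096 tested. Their median was -0.11, against -0.01 over all genes tested. The exercised and sedentary ranges of every one of the 10 overlapped, and the share of all genes whose ranges overlap was not counted.

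Cyr61 counts ran from 380 over a median of 467 to 770 CPM in cancer cells of exercised mice and from 341 over a median of 656 to 1167 CPM in those of sedentary mice. The 3 highest libraries were sedentary, but so was the lowest. Its log2 fold change was -0.61 ± 0.26 (unadjusted p = 0.0334, adjusted p = 0.362 by edgeR), and 6 of 7 exercised libraries lay below the sedentary mean. Ctgf ran from 33.5 over 46.6 to 144 CPM in exercised and from 28.6 over 94.1 to 167 CPM in sedentary libraries, and its log2 fold change of -0.42 ± 0.42 had an adjusted p of 0.738. Ankrd1 ran from 22.9 over 26.7 to 42.8 CPM in exercised and from 25.3 over 33.7 to 46.1 CPM in sedentary libraries, with -0.23 ± 0.14 (adjusted p = 0.513). The medians of all 3 targets were lower after exercise, and none of the 3 differences passed the threshold.

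Among the other members in cancer cells, Lats2 had -0.17 ± 0.09 (adjusted p = 0.443), Ajuba -0.12 ± 0.08 (adjusted p = 0.604) and Amotl2 -0.10 ± 0.15 (adjusted p = 0.840). The co-activators Yap1 and Wwtr1 had -0.06 ± 0.07 (adjusted p = 0.778) and -0.02 ± 0.13 (adjusted p = 0.967). Lats1 and Tead1 had values above 0, at 0.10 ± 0.09 (adjusted p = 0.691) and 0.04 ± 0.06 (adjusted p = 0.833). Yap1, Tead1, Wwtr1, Lats1 (0.096) and Amotl2 (-0.098) therefore showed differences smaller in size than 0.1 on the log2 scale. Lats2 and Ajuba exceeded that size. Ctgf, Cyr61 and Ankrd1 showed the largest differences, with larger errors than Yap1, Tead1 and Wwtr1. Amotl2, itself a YAP target, was thus among the smaller differences. The Lats2 to Lats1 log2 ratio was -1.31 ± 0.25 in exercised and -1.05 ± 0.25 in sedentary libraries, a difference of -0.26 (exact permutation p = 0.0718, adjusted p = 0.144). It passed the threshold without exercise library 10 (-0.33, adjusted p = 0.0306) and without sedentary library 4 (-0.32, adjusted p = 0.0431). The summed macrophage markers in cancer cells were 158 to 363 CPM in exercised and 107 to 189 CPM in sedentary libraries, and their part in these differences was not tested.

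In TME cells 0 of the 10 genes passed the threshold for exercise by edgeR, as did 0% of 16273 genes tested. At an unadjusted p under 0.05 there were 1373 genes, or 8.44%, and none of the 10. DESeq2 called 40 genes and 0 of the 10. Fold changes of 7 of 10 were below 0, as were 7925 of all 16273 tested, with a median of -0.20, against 0.01 over all genes. The smallest p belonged to Yap1, whose values, given above, were below the sedentary mean in 4 of 4 exercised libraries. Its log2 fold change was -0.28 ± 0.13 (unadjusted p = 0.0538, adjusted p = 0.588). The lowest Yap1 values, 117 and 118 CPM, were those of exercise libraries 8 and 9, and without these libraries the log2 fold change was -0.08.

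The target genes spread widely among the TME libraries. Cyr61 had 919, 341, 500 and 876 CPM in the libraries 7 to 10 of exercised mice and 616, 947, 477 and 1489 CPM in libraries 4, 6, 9 and 10 of sedentary mice. Ctgf had 96.7, 30.6, 71.2 and 113 CPM after exercise and 58.9, 88.6, 23.8 and 156 CPM in sedentary mice. For Ankrd1 the values were 32.8, 15.9, 11.9 and 21.5 CPM after exercise and 25.2, 22.4, 20.2 and 39.5 CPM in sedentary mice. The groups overlapped for all 3, and sedentary library 10 was highest for each. The log2 fold changes were -0.44 ± 0.45 for Cyr61 (adjusted p = 0.781), -0.09 ± 0.62 for Ctgf (adjusted p = 0.973) and -0.40 ± 0.33 for Ankrd1 (adjusted p = 0.712). Without exercise libraries 8 and 9 the values were 0.03 for Cyr61, 0.36 for Ctgf and 0.03 for Ankrd1. For Ctgf the sign also turned without sedentary library 10 alone, at 0.44. The part of macrophage transcript in these values was not tested.

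Amotl2 had 86.2, 48.7, 57.1 and 99.3 CPM in exercised and 76.9, 89.1, 69.9 and 116 CPM in sedentary TME libraries, with a log2 fold change of -0.29 ± 0.25 (adjusted p = 0.728). It too was lowest in exercise libraries 8 and 9, and without them the value was 0.08. Tead1 had -0.19 ± 0.12 (adjusted p = 0.637) and Ajuba -0.20 ± 0.14 (adjusted p = 0.657), and without exercise libraries 8 and 9 these values were -0.041 for Tead1 and -0.052 for Ajuba. Wwtr1, Lats2 and Lats1 had 0.12 ± 0.14 (adjusted p = 0.803), 0.12 ± 0.11 (adjusted p = 0.765) and 0.04 ± 0.12 (adjusted p = 0.935). Lats1 was -0.032 without exercise libraries 8 and 9, and without sedentary libraries 4 and 6 Lats1 was -0.036 and Wwtr1 0.023. The Yap1 to Wwtr1 log2 ratio was -1.23 ± 0.35 in exercised and -0.81 ± 0.22 in sedentary TME libraries (exact permutation p = 0.114, adjusted p = 0.171, where 70 splits allow no p below 0.0286). The difference of -0.42 ran from -0.59 to -0.33 with 1 library left out. It was not computed without exercise libraries 8 and 9 together, which had the lowest Yap1.

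The exercise effect in cancer cells minus that in TME cells was called for 0 of the 10 genes and 0% of 17503, with 7.52% at an unadjusted p under 0.05. DESeq2 called 2 genes, neither among the 10. Tead1 had the smallest p of the 10, with a difference of 0.25 ± 0.12 (unadjusted p = 0.0466, adjusted p = 0.655). Without exercise TME libraries 8 and 9 it was 0.098. Yap1 had 0.24 ± 0.13 (adjusted p = 0.695), or 0.041 without these libraries, and Lats2 -0.26 ± 0.14 (adjusted p = 0.699). The exercise effect on these genes was therefore not shown to differ between compartments.

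Libraries of 1 group differed far more in Ctgf and Cyr61 than in Yap1, Tead1 and the kinase genes. The pooled within-group SD of log2 CPM was 0.90 for Ctgf, larger than that of 99.7% of the 9742 genes whose mean log2 CPM reached 3, whose median was 0.20. It was 0.59 for Cyr61 (98.6%), 0.39 for Ankrd1 (94.7%) and 0.36 for Amotl2 (92.9%). Wwtr1 had 0.27 (79.2%). The other 5 lay below the median, with Lats1 at 0.18, Lats2 and Ajuba at 0.15, Yap1 at 0.14 and Tead1 at 0.12, the last above only 6.96% of genes. The highest Ctgf library exceeded the lowest 4.29 times in cancer cells of exercised mice, 5.82 times in cancer cells of sedentary mice, 3.68 times in TME cells of exercised mice and 6.56 times in TME cells of sedentary mice. Ctgf, Cyr61 and Ankrd1 are named here as targets, and Amotl2, next in spread, is both a scaffold gene and a YAP target. Target and regulator are therefore not separate classes among these genes.

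**Figure D3:**
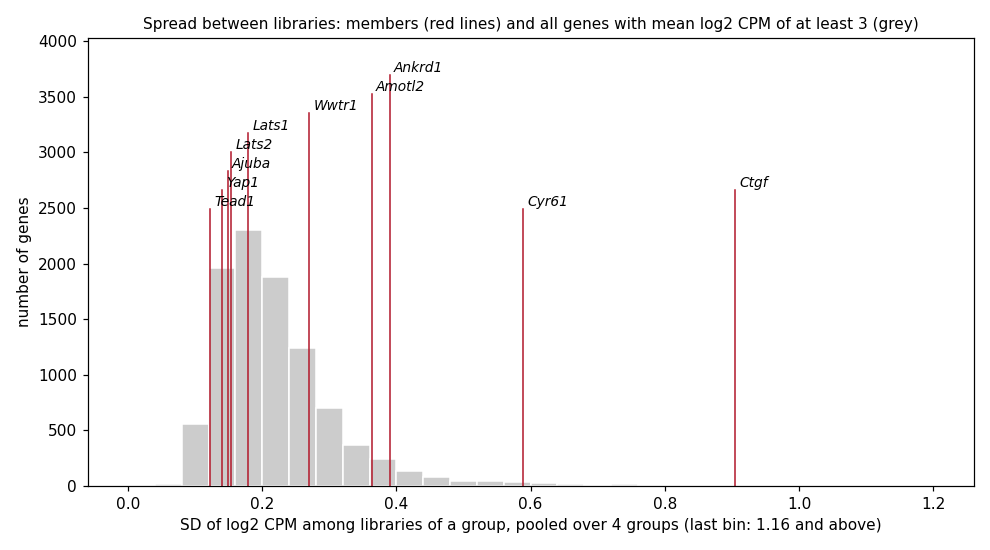
Distribution over 9742 genes of the pooled SD of log2 CPM within the 4 groups, with the 10 genes marked. Ctgf at 0.90 and Cyr61 at 0.59 lie in the far right tail, and Yap1 at 0.14 and Tead1 at 0.12 lie left of the median of 0.20.

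The targets varied together among the 15 cancer libraries. Ctgf and Amotl2 correlated with Pearson r = 0.867 (permutation p = 7e-05) and Spearman rho = 0.846 (permutation p = 0.00015), with adjusted p of 2e-04 and 0.000375 over 5 relations. Without the 2 libraries farthest from the median of Ctgf r was 0.850, and within treatments it was 0.819 over 7 exercised and 0.952 over 8 sedentary libraries. Spearman's rho was 0.571 within exercised libraries, which did not pass (exact permutation p = 0.200, adjusted p = 0.333), and 0.952 within sedentary libraries. Ctgf and Cyr61 gave r = 0.849 (permutation p = 8e-05) and rho = 0.825 (permutation p = 0.00027), adjusted to 2e-04 and 0.00045. Here r was 0.866 without the 2 farthest libraries, 0.911 within exercised and 0.865 within sedentary libraries, and rho was 0.929 within exercised and 0.881 within sedentary libraries. Ankrd1 followed less closely. With Ctgf it gave r = 0.575 (permutation p = 0.0263) and rho = 0.496 (permutation p = 0.0619), and with Cyr61 r = 0.575 (permutation p = 0.0259) and rho = 0.525 (permutation p = 0.0463), adjusted to 0.0263 for both r and to 0.0619 and 0.0578 for rho. Both were 0.588 or 0.589 without the 2 farthest libraries. Within treatments neither passed the threshold. With Ctgf r was 0.600 within exercised and 0.487 within sedentary libraries, and with Cyr61 it was 0.295 within exercised and 0.666 within sedentary libraries.

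Cyr61 also followed the immediate early genes, a list of 17 quickly induced transcripts such as Fos, Jun and Egr1. Their mean log2 CPM correlated with Cyr61 at r = 0.838 (permutation p = 0.00022) and rho = 0.875 (permutation p = 9e-05), adjusted to 0.000367 and 0.000375. The value was 0.827 without the 2 farthest libraries, 0.945 within exercised and 0.839 within sedentary libraries, and rho was 0.821 within exercised libraries (adjusted exact permutation p = 0.0853) and 0.881 within sedentary libraries. Summed immediate early counts were 4251 to 6810 CPM in cancer cells of exercised mice and 3087 to 7244 CPM in those of sedentary mice. For exercise in cancer cells 14 of these 17 genes had fold changes below 0, at a median of -0.17, and 0 passed the threshold. Over all genes tested there, 7942 of 15096 were below 0. In TME cells 8 of the 17 were below 0 and 9 above. The part of the immediate early genes in the Cyr61 difference was not tested.

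Wwtr1 ran opposite to the target genes and Amotl2, a pattern singled out after the values were seen. Over all 23 libraries, centred on the group means, its Pearson r was -0.69 with Ctgf and -0.67 with Cyr61. It was -0.67 with Amotl2 and -0.41 with Ankrd1, and none of these r was tested. Some sedentary cancer libraries show the pattern. The highest Wwtr1 level, 1017 CPM in sedentary cancer library 4, came with the lowest Ctgf of the cancer libraries, 28.6 CPM, and with 55.3 CPM of Amotl2. Sedentary library 9, with 825 CPM of Wwtr1, had the lowest Cyr61 and Amotl2 of the cancer libraries, 341 and 53.7 CPM. Sedentary libraries 5 and 7 had the lowest Wwtr1, 469 and 496 CPM, and high Ctgf, 136 and 167 CPM. Exercised cancer library 8 went against the pattern. Its Wwtr1, 587 CPM, was the lowest of its group, and so were its Ctgf and Cyr61, 33.5 and 380 CPM. All values come from the same libraries and share their depth and scaling.

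**Figure D4:**
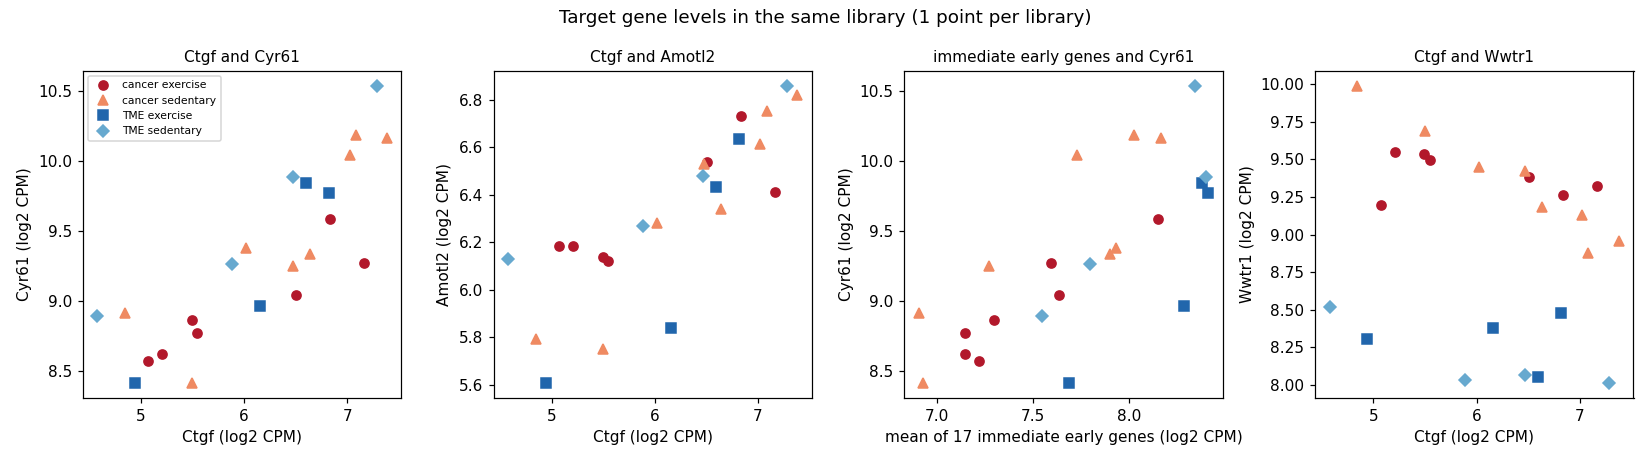
Scatter of log2 CPM in all 23 libraries for Ctgf with Cyr61, Ctgf with Amotl2, the immediate early mean with Cyr61 and Ctgf with Wwtr1; colour and shape give the 4 groups. In the 15 cancer libraries (red and orange) the first 3 panels rise from left to right with r of 0.849, 0.867 and 0.838, and the last panel shows the highest Wwtr1 at the lowest Ctgf.

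The genes most alike in their variation were found by the Pearson correlation of log2 CPM, centred on the 4 group means, over all 23 libraries and 9411 genes. Nearest to Ctgf were Plk2 (0.960), a stress-induced polo-like kinase, Hspa1b (0.945), an inducible heat shock protein whose near-identical copy Hspa1a makes its counts uncertain, and Tnfaip3 (0.942), an NF-kappaB target. Nearest to Cyr61 were Dnajb4 (0.912), Hspb1 (0.910) and Dnajb1 (0.901), all chaperones or co-chaperones of the heat shock response. For Ankrd1 they were Rcan1 (0.854), a calcineurin regulator, Axin2 (0.842), a WNT target, and Ccdc25 (0.821). Yap1 was nearest to Calu (0.860), a calcium-binding protein of the secretory pathway, Ptpn14 (0.817), a phosphatase that binds YAP, and Nptxr (0.814). The values describe these libraries, which share depth and handling.

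The wider pathway was read from lists of related genes. Of 27 Hippo kinase cassette genes and upstream regulators, 15 were higher and 4 lower in cancer than in TME cells, where 27.3% of all genes tested were higher and 25.3% lower, and the median log2 fold change of the 27 was 0.25. Those with the smallest p were Sav1, the MST kinase scaffold (0.56 ± 0.06, adjusted p = 3.27e-09), Mob1b, a LATS co-activator (0.88 ± 0.09, adjusted p = 4.45e-09), Dchs1, an atypical cadherin (-3.49 ± 0.36, adjusted p = 5.74e-09), and Amot, an angiomotin (0.63 ± 0.07, adjusted p = 3.32e-08). Sav1 and Mob1b thus lay on the same side as Lats1. Of these genes 0 of 26 tested in cancer cells and 0 of 27 in TME cells passed the threshold for exercise, with medians of 0.03 and -0.05. Stk3, the MST2 kinase, had the smallest p in cancer cells (0.26 ± 0.07, adjusted p = 0.171), and Amotl1 in TME cells (-0.36 ± 0.15, adjusted p = 0.586).

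Of 7 TEAD and VGLL genes other than Tead1, 5 were tested and none passed in any comparison. Tead1, described above as a member, did pass between the sorts. Tead2 had -0.27 ± 0.07 for exercise in cancer cells (adjusted p = 0.155) and -0.49 ± 0.17 in TME cells (adjusted p = 0.586). Of 22 other YAP and TAZ targets 21 were tested. Of these, 10 were higher and 3 lower in cancer than in TME cells, with a median of 0.27. Over all genes tested in that comparison, 27.3% were higher and 25.3% lower. The smallest p were those of Nt5e, the ectonucleotidase CD73 (0.72 ± 0.07, adjusted p = 4.22e-09), Dock5, a guanine exchange factor (0.70 ± 0.07, adjusted p = 5.35e-09), Igfbp3, a secreted IGF-binding protein (-5.23 ± 0.48, adjusted p = 2.14e-08), and Myof, a membrane repair protein (0.79 ± 0.09, adjusted p = 5.93e-08). These targets thus fell on both sides of the comparison, with 16 fold changes above 0 and 5 below.

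For exercise in cancer cells, 0 of these 21 targets passed, with a median of -0.06. At an unadjusted p under 0.05, 2 were higher and 5 lower, where 5.92% of all genes were higher and 6.67% lower. Tgm2, transglutaminase 2, had 0.39 ± 0.10 (adjusted p = 0.155) and Dock5 0.26 ± 0.08 (adjusted p = 0.200), while Nuak2, an AMPK-related kinase, had -0.44 ± 0.15 (adjusted p = 0.230) and F3, tissue factor, -0.38 ± 0.13 (adjusted p = 0.246). In TME cells 0 of 21 passed, with a median of -0.19. Between the sorts, 0 of the 17 immediate early genes were higher and 10 lower in cancer than in TME cells, with a median of -0.43. The shares of all genes tested there were 27.3% higher and 25.3% lower. Zfp36, an mRNA decay factor, had -1.33 ± 0.20, Ier3 -0.66 ± 0.11, Jun -0.58 ± 0.13 and Junb -0.88 ± 0.20. Cyr61, at -0.28, had the same sign and did not pass.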

How the data were processed

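Raw counts per gene symbol were deposited as 1 table for 23 libraries, and all 23 columns were used. Per the submitters' processing notes, STAR and featureCounts were used on the mm10 build. The sources used here give no version, annotation release or strand setting. Trizol RNA and KAPA mRNA-Seq libraries were used, per the labels' protocols.

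From these counts, fits were made with edgeR 4.0.16 in R 4.3.3, using filterByExpr, TMM scaling, the robust quasi-likelihood test (two-sided) and Benjamini-Hochberg adjustment over all genes tested, at a threshold of 0.05. Every adjusted p of a gene comes from that test. Exercise was fitted on the 15 cancer libraries and on the 8 TME libraries separately. Cancer against TME cells, and the difference of the exercise effects, were fitted on all 23 libraries in 4 groups. Values after ± are standard errors for fold changes and SDs for levels. CPM are TMM-scaled, and log2 CPM has a prior count of 2. RPKM uses the union of exons in GENCODE M21 (GRCm38), where Ctgf and Cyr61 stand as Ccn2 and Ccn1. Promoters are RefSeq windows of GRCm38.p6.

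As no strand setting is given, reads of overlapping genes cannot be told apart. Of the 10 genes, 5 overlap another annotated gene (Yap1, Wwtr1, Tead1, Lats2 and Ctgf), and the counted overlapping genes held at most 4.8% of a member's count in any library.

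The members and the lists were chosen with earlier results of these data known. All members are named, with up to 4 list genes of smallest p per comparison, and the 3 genes most alike to each of Ctgf, Cyr61, Ankrd1 and Yap1 among genes with mean log2 CPM of at least 3. No pair of libraries agreed within sampling noise. Alternatives were DESeq2 1.42.0, RLE factors, genes kept without a filter or from a mean CPM of 1 up, a joint fit of all libraries, a replicate block, a prior count of 0.5, each treatment alone, each library left out in turn, and TME sedentary libraries 4 and 6 left out. Leaving out TME exercise libraries 8 and 9 was added after seeing the data. Data were simulated with real means and library sizes, and changes of 0.5 and of 1 on the log2 scale were given to 50 genes each. For exercise, 52% and 90% were recovered in cancer cells (15096 genes) and 4% and 62% in TME cells (16273 genes). For cancer against TME cells 46% and 88% were recovered, and for the difference of effects 8% and 62% (17503 genes each). False calls were 16, 11, 6 and 5 in the same order. The changed genes were drawn at random from those of at least 1 CPM. Recovery therefore describes typical genes and not Ctgf or Cyr61, whose pooled SD was 0.90 and 0.59, against a median of 0.20.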

Additional observations from a re-analysis of the deposited data

Results flagged for a closer look

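Of 40 sets of libraries (10 genes in 4 groups), 4 held a library far from the others of its group by Dixon's criterion, and chance flags about 1 in 20. Yap1 was 168 CPM in exercised cancer library 7, where the next library had 150 CPM. Ajuba was 42.7 CPM in the same library, where the next had 35.0 CPM. Wwtr1 was 367 CPM in sedentary TME library 9, where the next had 269 CPM. Lats1 was 90.2 CPM in exercised TME library 9, where the next had 74.2 CPM. In each case the library was the highest of its group.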

How the results depend on the processing

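Of the 10 genes, 0 were called for exercise in either compartment or for the difference of effects under any alternative run. Wwtr1, Tead1 and Lats1 were called between the sorts in all 33 settings, Ajuba in 31 and Ankrd1 in 17.

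The genes called for exercise in cancer cells were 161 by DESeq2, 28 with no filter, 1 with all libraries in 1 fit, and 0 to 43 with 1 library left out (43 without sedentary library 4, 6 without exercise library 10, 3 without exercise library 5, 1 without sedentary library 3). In TME cells they were 40 by DESeq2 and 6 with no filter. For the difference of effects they were 2 by DESeq2, 14 with the replicate block and 0 to 52 with 1 library left out (52 without exercise TME library 7). Between the sorts, 3 members were called without TME sedentary libraries 4 and 6. The Lats2 to Lats1 difference in cancer cells was -0.33 to -0.20 with 1 library left out.

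Within treatments the correlations of Ankrd1 missed the threshold, at 0.600 in exercised and 0.487 in sedentary libraries with Ctgf and at 0.295 in exercised and 0.666 in sedentary libraries with Cyr61.

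Same-numbered libraries correlated by -0.07 to 0.09 between treatments in cancer cells, by 0.01 to 0.23 in TME cells and between sorts by 0.14 to 0.24 over 3 exercised pairs and -0.06 to 0.05 over 4 sedentary pairs. Not all pairs exceeded 0.1, so the numbers are not shown to pair libraries. With the replicate block 6 members were called between the sorts, Cyr61 (-0.37, adjusted p = 0.0111) among them. With that block the sign turned for exercise in cancer cells for Yap1 (0.0021) and Wwtr1 (0.14), in TME cells for Ctgf (0.54), between the sorts for Amotl2 (-0.032) and Ctgf (-0.098), and in the difference for Lats1 (-0.070), Ctgf (0.23) and Cyr61 (0.18).

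Other signs that turned were of fold changes that did not pass. For exercise in cancer cells Wwtr1 was 0.0052 with no filter and 0.017 with all libraries in 1 fit. In TME cells Lats1 was -0.036 without sedentary libraries 4 and 6. Without exercise libraries 8 and 9 it was -0.032, and Amotl2, Ctgf, Cyr61 and Ankrd1 were 0.083, 0.36, 0.031 and 0.028. Between the sorts Yap1 was -0.081 in sedentary libraries, -0.0096 by DESeq2, -0.0095 with RLE, -0.026 at a mean CPM of at least 1, -0.057 without sedentary libraries 4 and 6 and -0.079 without exercise libraries 8 and 9. In the same comparison Amotl2 was -0.052 in sedentary libraries, -0.013 at that mean CPM, -0.044 without 4 and 6 and -0.15 without 8 and 9, Ctgf was -0.094 in exercised libraries, -0.0062 at that mean CPM, -0.061 without 4 and 6 and -0.18 without 8 and 9, and Lats2 was -0.0030 in exercised libraries. In the difference of effects Ajuba, Amotl2 and Ankrd1 were -0.043, -0.17 and -0.24 without 8 and 9. The cause of these moves was not tested.

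With 1 library left out, values ran from -0.077 to 0.094 for Wwtr1 in cancer cells, -0.034 to 0.081 for Lats1 and -0.40 to 0.44 for Ctgf in TME cells, -0.034 to 0.061 for Yap1, -0.057 to 0.099 for Amotl2 and -0.13 to 0.28 for Ctgf between the sorts, and -0.0083 to 0.13 for Lats1, -0.56 to 0.020 for Cyr61 and -0.089 to 0.46 for Ankrd1 in the difference. With 4 TME libraries in each treatment, small exercise differences may have been missed.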
